A study of Rattus norvegicus with 10 samples.

Results

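The endocannabinoid receptor and enzymes examined here were the cannabinoid receptor CB1 (Cnr1), the enzymes that make the main brain endocannabinoids (Dagla, Daglb and Napepld) and the enzymes that break them down (Mgll, Abhd6 and Faah). The genes were chosen by name and by their role. Of the 7 listed genes, 6 could be matched to a row, among 16610 gene symbols with a row in the deposited table. No row could be matched to Faah, the main hydrolase of anandamide, and it was not analysed here. Messenger RNA was sequenced from the left hippocampus (tissue with CA3 and the dentate gyrus) of adult male Sprague-Dawley rats, with 1 library per rat. The TBI group held 5 rats that were killed 3 months after lateral fluid-percussion injury of mean severity 3.32 atm, a model in which a pressure pulse strikes the intact dura over the left parietal cortex. The sham group held 5 rats with the same anaesthesia and craniectomy but no impact. The methods of the study list fewer control rats for this sequencing than the labels, and the labels were followed. By the methods of the study, the injured rats had no EEG monitoring, so which of them had seizures is unknown.

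Endocannabinoids are lipid messengers made on demand in the postsynaptic neuron. Diacylglycerol lipase, activated downstream of Gq-coupled receptors and calcium, makes 2-arachidonoylglycerol, which travels back across the synapse and binds CB1 on the presynaptic terminal, where Gi/o proteins lower transmitter release. In the hippocampus CB1 is densest on the terminals of cholecystokinin-expressing GABAergic interneurons and is also present, at lower density, on glutamatergic terminals. The signal ends when monoacylglycerol lipase and related hydrolases cleave 2-arachidonoylglycerol, or when fatty acid amide hydrolase cleaves anandamide.

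The libraries held 23425817 to 31671838 counts. Ribosomal RNA took 12.5% to 59.0% of them, and the highest shares were those of sham replicates 4 (59.0%) and 5 (58.5%). The 10 libraries kept 12686398 to 24735107 counts outside ribosomal RNA. Markers of the dissected fields were present in every rat, with a summed level of 398 to 568 CPM (counts per 1e6 counts of the scaled library) for 4 CA3 pyramidal cell genes. The summed level of 4 dentate granule cell genes was 75.4 CPM in sham replicate 1 and 124 to 264 CPM in the other rats. Of 22431 rows tested, 0 (0%) had an adjusted p under 0.05 in edgeR's quasi-likelihood test, 1769 had an unadjusted p under 0.05, and DESeq2 gave 3 rows at the adjusted threshold.

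The question put to each gene was whether its transcript level differed between injured and sham-operated rats. None of the 6 measured genes passed an adjusted p of 0.05 by edgeR, DESeq2 or limma voom. By edgeR, 1 of the 6 had an unadjusted p under 0.05, against 7.89% of all rows, and that gene, Cnr1, was lower in TBI, as were 3.00% of all rows. None of the 6 had an unadjusted p under 0.001 (0.196% of all rows), and none had groups that did not overlap (0.923% of all rows). A single gene of 6 is too few to set against these shares. The log2 changes of the 6 genes ran from -0.27 to 0.14 with a median of 0.05, beside a median of -0.01 over all rows, and 3 were higher and 3 lower, with directions of Cnr1, Abhd6 and Napepld that turned under some alternatives. When libraries were scaled to counts outside ribosomal RNA, 3 of the 6 had an unadjusted p under 0.05, none of them Cnr1 and all higher. Under that scaling 2898 of 22426 rows were under 0.05, and the median of all rows was 0.14. Relative to that median Dagla, Daglb and Mgll were at 0.14, 0.14 and 0.12, beside 0.14, 0.15 and 0.11 in the reported fit. Because the tissue is a mixture, fewer cells of a type and less RNA per cell cannot be told apart in any of these values.

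Cnr1 (NM_012784.4) encodes CB1. Its level was 144, 104, 106, 102 and 89.2 CPM in sham replicates 1 to 5 and 99.4, 89.3, 91.5, 83.2 and 90.4 CPM in TBI replicates 1 to 5. In 4 of the 5 sham rats Cnr1 lay above every TBI rat, and sham replicate 5 lay inside the TBI range. The mean was 109 ± 20.6 CPM in sham and 90.8 ± 5.80 CPM in TBI (SD, n = 5 each). The fitted log2 change was -0.27 with an SE of 0.103 and a 95% interval of -0.49 to -0.05, a 0.830-fold level in TBI. Its unadjusted p was 0.0178 and its adjusted p was 0.549 (edgeR quasi-likelihood test, Benjamini-Hochberg), so the difference did not pass correction. The spread between rats was wider in sham, with a coefficient of variation of 18.9% against 6.39% in TBI. Sham replicate 1 carried much of both the difference and this spread. Without it the log2 change was -0.15 (unadjusted p 0.0682, edgeR).

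**Figure D1:**
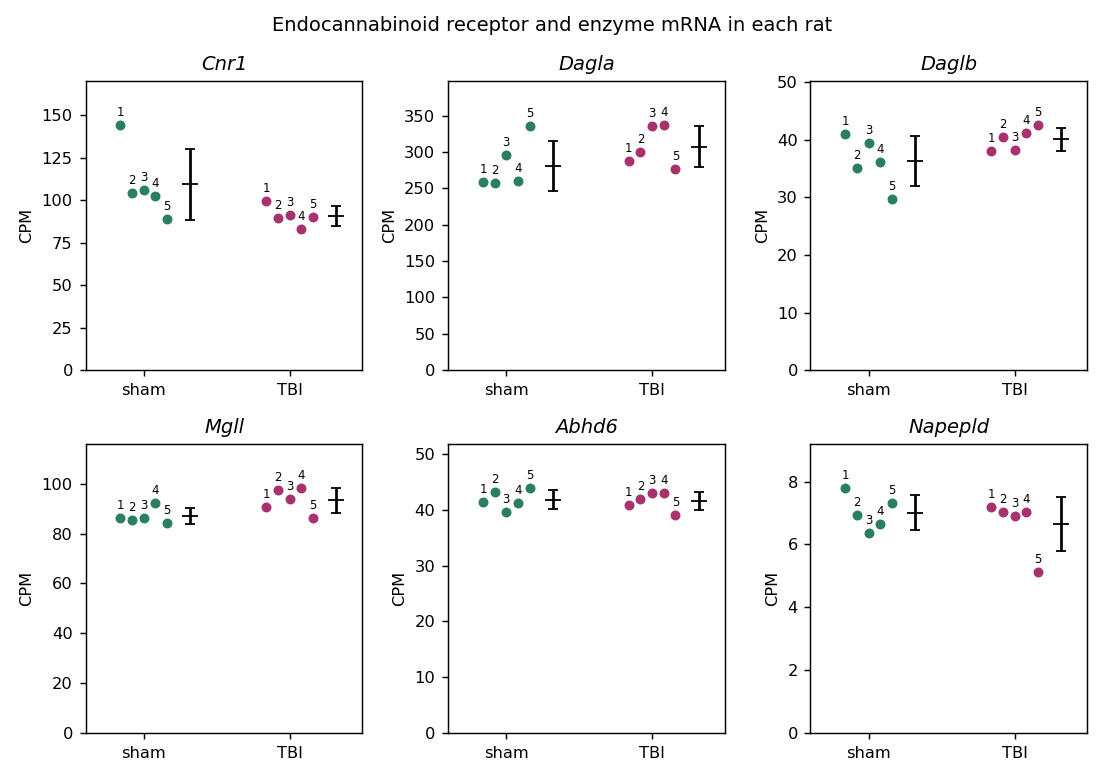
Level of each measured gene in every rat, in CPM on a linear axis of its own per panel, with points numbered by replicate and black bars for the mean ± SD of 5 sham and 5 TBI rats. Cnr1 has sham replicate 1 far above the rest at 144 CPM and 4 of 5 sham rats above all TBI rats, and the groups also overlap in each of the 5 enzymes.

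Markers of GABAergic neurons were also lower in TBI, and those of cholecystokinin interneurons were mixed. All 3 genes reported for GABAergic neurons were lower. Of them, 2 had an unadjusted p under 0.05, against 3.00% of all rows that were lower at that threshold, a difference that was not tested. These were Gad1 and Gad2, the enzymes of GABA synthesis, both at -0.46 on the log2 scale. Their unadjusted p was 0.000282 for Gad1 and 9.02e-05 for Gad2, with an adjusted p of 0.477 for each (edgeR). Slc32a1, the vesicular GABA transporter, was at -0.30 (unadjusted p 0.137). The summed level of the 3 genes was 134 to 174 CPM in sham and 92.7 to 142 CPM in TBI, and no marker was at a count of 0 in any library. With each library scaled to its total count all 3 came out higher, as most rows did, but they stayed below the median change of all rows. Of 4 genes that mark cholecystokinin interneurons, Htr3a, a serotonin receptor subunit, was at -0.53 (unadjusted p 0.0215), Slc17a8, a vesicular glutamate transporter, at -0.28 (unadjusted p 0.0387), Vip at -0.18 and Cck itself at 0.21 (unadjusted p 0.265). Their sum, most of it Cck, was 64.2 to 139 CPM in sham (median 97.1) and 93.7 to 127 CPM in TBI (median 109). Sham replicate 1, the rat with the highest Cnr1 level and the lowest summed dentate granule level, also had the highest level of 6 of these 7 interneuron genes. This was not confined to interneuron genes. The same rat had the highest summed level of 6 pan-neuronal markers (2434 CPM). Its sum of 4 CA3 pyramidal cell genes (568 CPM) was also the highest, just above TBI replicate 4 (567 CPM). The part of neuronal content, of interneuron content and of dissection in the Cnr1 difference was not tested.

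Ratios taken within a library do not depend on how libraries are scaled, and they set Cnr1 against 2 of these markers. They are described without a test. The log2 ratio of Cnr1 to Gad1 counts was 0.398 ± 0.192 in sham and 0.618 ± 0.260 in TBI (SD, n = 5 each), so Cnr1 was not lower relative to Gad1, and the groups overlapped. The log2 ratio of Cnr1 to Cck was 0.315 ± 0.329 in sham and -0.189 ± 0.208 in TBI, a difference of -0.50, and every sham rat (0.129 to 0.902) lay above every TBI rat (-0.413 to 0.0765). Sham replicate 2 had the highest value of this ratio, and the difference was -0.36 without it. In the hippocampus Cck is also transcribed in pyramidal neurons, so this ratio is not one within interneurons.

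**Figure D2:**
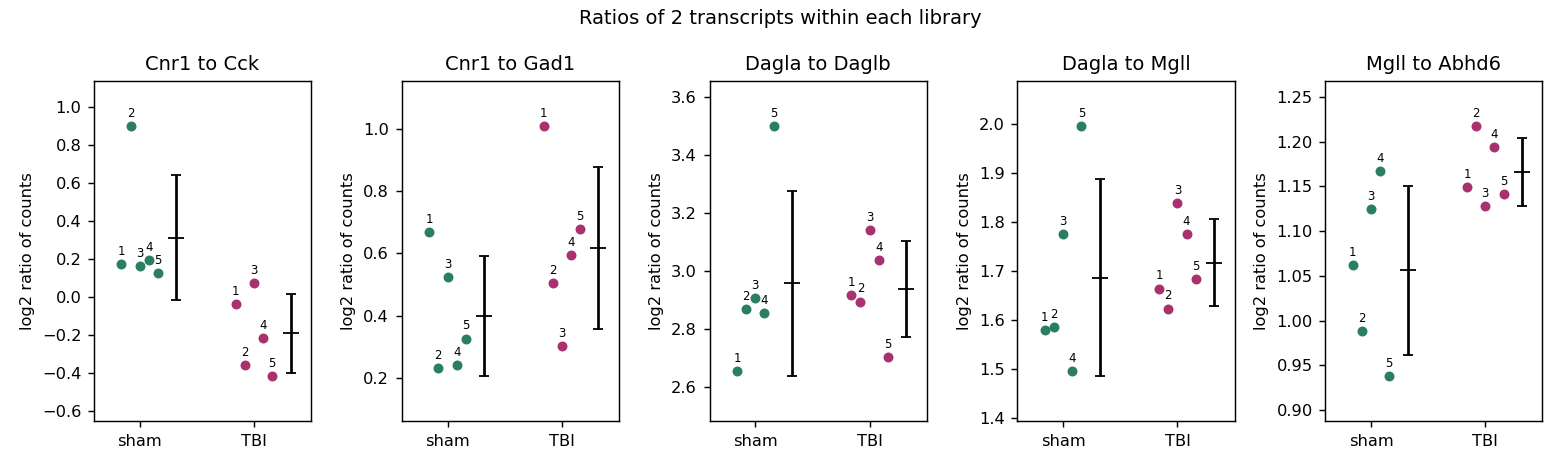
Log2 ratios of counts between pairs of genes within each library, with points numbered by replicate and black bars for the mean ± SD of 5 rats per group. Of the 5 ratios, that of Cnr1 to Cck has groups that do not overlap, the ratio of Mgll to Abhd6 is 0.11 higher in TBI with overlapping groups, and the other enzyme ratios differ by 0.03 or less.

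Dagla and Daglb encode the 2 diacylglycerol lipases that make 2-arachidonoylglycerol, of which the alpha enzyme serves most retrograde signalling at adult synapses. Dagla (NM_001005886.1) was at 258, 257, 295, 261 and 336 CPM in sham replicates 1 to 5 and at 287, 301, 336, 337 and 277 CPM in TBI replicates 1 to 5. The groups overlapped: 3 sham rats were below all TBI rats, and sham replicate 5 was among the highest of all 10. Its mean was 281 ± 34.3 CPM in sham and 307 ± 27.9 CPM in TBI. The log2 change was 0.13 with a 95% interval of -0.06 to 0.32 (unadjusted p 0.177, adjusted p 0.773, edgeR). That interval reaches from a change of -4.30% to one of 24.8% in TBI. Without sham replicate 5 the change was 0.20 (unadjusted p 0.0367, edgeR).

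Daglb (NM_001107120.1), the beta enzyme, which is prominent in microglia and other non-neuronal cells, was at 41.0, 35.1, 39.4, 36.0 and 29.7 CPM in sham and at 38.0, 40.4, 38.1, 41.1 and 42.5 CPM in TBI, replicates 1 to 5 in each. The TBI rats were close together, at 40.0 ± 1.93 CPM, inside or just above the wider sham range, at 36.3 ± 4.39 CPM. Its log2 change was 0.14 with a 95% interval of -0.04 to 0.32 (unadjusted p 0.118, adjusted p 0.728, edgeR). Sham replicate 5, the lowest rat for Daglb, was the highest sham rat for Dagla. The change of Daglb varied with the rats left out and with the handling of ribosomal RNA. It was 0.18 without sham replicate 1 (unadjusted p 0.0434, edgeR) and 0.07 without sham replicate 5 (unadjusted p 0.360). Without sham replicate 4, the other sham rat rich in ribosomal RNA, it was 0.13. It was 0.06 without both of these rats and 0.02 with the ribosomal RNA share as a term. The part of sham replicate 5 and that of ribosomal RNA cannot be told apart in these values. The log2 ratio of Dagla to Daglb was 2.96 ± 0.319 in sham and 2.94 ± 0.165 in TBI, a difference of -0.02 within the spread of either group, which turned to 0.12 without sham replicate 5.

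Napepld (NM_199381.1) encodes the phospholipase D that releases anandamide and other N-acylethanolamines from their membrane precursors. It had the lowest counts of the 6 genes, 98 to 264 per library, which limits its precision more than that of the others. Its level was 7.80, 6.94, 6.37, 6.66 and 7.31 CPM in sham and 7.19, 7.03, 6.89, 7.02 and 5.13 CPM in TBI, replicates 1 to 5 in each. Apart from TBI replicate 5, the TBI rats lay within the sham range. The log2 change was -0.08 with a 95% interval of -0.31 to 0.15 (unadjusted p 0.486, adjusted p 0.901, edgeR), and without TBI replicate 5 it was 0.00.

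Mgll (NM_138502.2) encodes monoacylglycerol lipase, the presynaptic and astrocytic enzyme that removes most 2-arachidonoylglycerol in the brain. Its level was 86.4, 85.6, 86.2, 92.4 and 84.2 CPM in sham and 90.6, 97.6, 94.0, 98.4 and 86.2 CPM in TBI, replicates 1 to 5 in each. The sham rats apart from replicate 4 were within a narrow band, and 3 TBI rats were above every sham rat. The means were 87.0 ± 3.16 and 93.3 ± 5.07 CPM. The log2 change was 0.10 with a 95% interval of -0.04 to 0.25 (unadjusted p 0.157, adjusted p 0.757, edgeR).

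Abhd6 (NM_001007680.1) encodes a postsynaptic hydrolase that cleaves 2-arachidonoylglycerol near its site of synthesis. Its level was 41.4, 43.2, 39.5, 41.1 and 43.9 CPM in sham and 40.9, 42.0, 43.0, 43.0 and 39.1 CPM in TBI, replicates 1 to 5 in each. The groups lay over one another, with means of 41.8 ± 1.74 and 41.6 ± 1.66 CPM. The log2 change was -0.01 (unadjusted p 0.903, adjusted p 0.990, edgeR), and the 95% interval bounded it between -10.0% and 9.84%. The log2 ratio of Mgll to Abhd6 was 1.06 ± 0.0944 in sham and 1.17 ± 0.0378 in TBI, a difference of 0.11 that was larger than the SD of either group, with 2 TBI rats above every sham rat. The log2 ratio of Dagla to Mgll was 1.69 ± 0.201 in sham and 1.72 ± 0.0884 in TBI. The difference in this ratio, which sets the main enzyme of synthesis against that of hydrolysis, was 0.03 on the log2 scale, within the spread between rats.

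**Figure D3:**
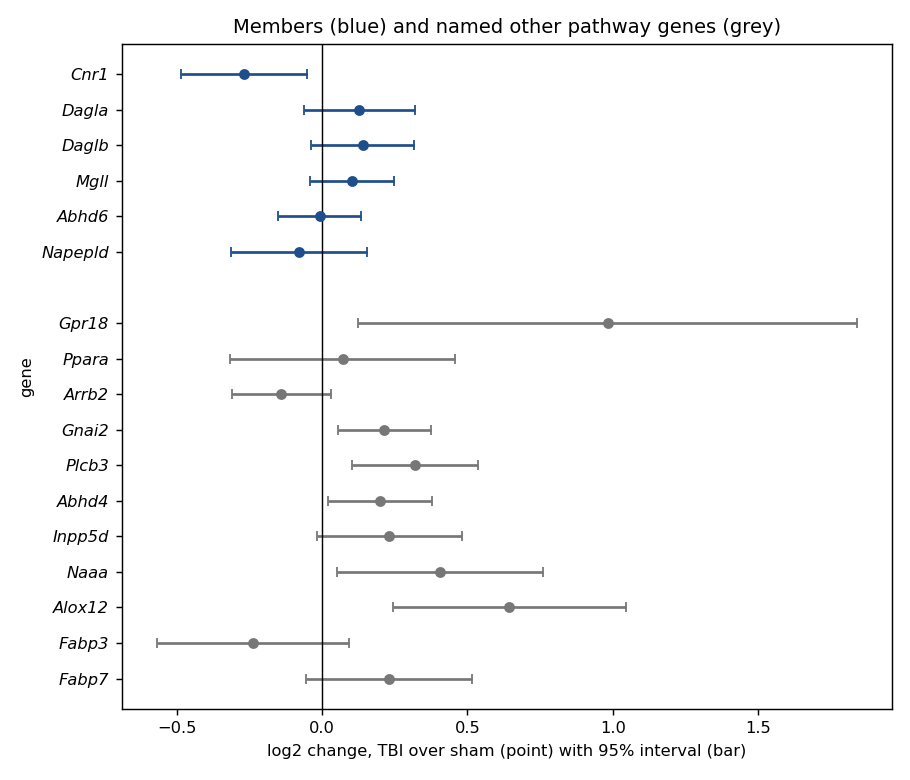
Log2 change, TBI over sham, of the 6 measured genes and of other pathway genes named here, with bars for the 95% interval from edgeR's quasi-likelihood fit over 5 sham and 5 TBI rats. Cnr1 at -0.27 is the one measured gene whose interval excludes 0, and 6 of the other genes, all higher in TBI, have intervals above 0, among them Alox12 at 0.64.

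The other genes of the pathway were taken from 6 lists by role. Of 38 listed genes, 35 had a row and 33 had enough counts to be tested. None passed an adjusted p of 0.05 in edgeR (lowest adjusted p 0.483), 19 were higher and 14 lower, and their median log2 change was 0.02. By unadjusted p, 6 of the 33 were under 0.05 and all 6 were higher in TBI, against 4.89% of all rows that were higher, a difference in shares that was not tested. Of the 33, 1 (Alox12) had groups that did not overlap, against 0.923% of all rows, and a single gene is too few to set against that share. The count of 6 rested in part on single rats: it was 3 without sham replicate 5, 3 without TBI replicate 2, and 2 (Plcb3 and Alox12) without both sham rats rich in ribosomal RNA. With the ribosomal RNA share as a term, the same 2 of the 6 had an unadjusted p under 0.05.

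Among the other receptors, 3 of the 4 tested were higher. Gpr18, a proposed receptor for N-arachidonyl glycine, was at 0.98 on the log2 scale (unadjusted p 0.0270, edgeR), but it had 1 to 19 counts in a library. Ppara, a nuclear receptor that binds N-acylethanolamines, was at 0.07. Cnr2, the cannabinoid receptor of immune cells, was at 0.04 with a 95% interval of -0.42 to 0.50.

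Among receptor partners and G proteins, 4 of 7 were higher. Gnai2, a Gi alpha subunit through which CB1 and many other receptors signal, was at 247 ± 15.8 CPM in sham and 286 ± 20.2 CPM in TBI, a log2 change of 0.21 (unadjusted p 0.0120, adjusted p 0.511, edgeR). Sham replicate 3, at 274 CPM, was the one sham rat inside the TBI range of 259 to 315 CPM. Arrb2, a beta-arrestin that uncouples activated receptors, was at -0.14 (unadjusted p 0.100). The related subunit genes Gnai1, Gnai3 and Gnao1 were at -0.08, 0.12 and 0.01.

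Upstream of 2-arachidonoylglycerol, 4 of the 9 Gq-coupled receptors, Gq proteins and phospholipases were higher and 5 lower. Plcb3, a phospholipase C that yields diacylglycerol, was at 9.02, 7.91, 9.94, 7.95 and 8.62 CPM in sham and at 12.3, 12.0, 9.68, 10.6 and 9.79 CPM in TBI, replicates 1 to 5 in each. Sham replicate 3 was above the 2 lowest TBI rats, and the other sham rats were below all of them. Its log2 change was 0.32 with a 95% interval of 0.10 to 0.53 (unadjusted p 0.00615, adjusted p 0.487, edgeR). Plcb1 and Plcb4, its relatives in the list, were at -0.01 and -0.02.

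Of 5 tested genes of other routes to anandamide, 3 were higher. Abhd4, which acts on the same N-acyl phospholipid precursors as Napepld, was at 0.20 (unadjusted p 0.0318, edgeR), with 47.9 to 53.6 CPM in sham and 49.3 to 66.1 CPM in TBI. Inpp5d, an inositol phosphatase of haematopoietic cells, was at 0.23 (unadjusted p 0.0664).

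Among the other hydrolases and oxidising enzymes, 3 of 5 were higher. Alox12, a lipoxygenase that oxidises arachidonic acid, was at 0.936, 0.862, 0.942, 1.16 and 0.937 CPM in sham and at 1.88, 1.38, 1.32, 1.74 and 1.17 CPM in TBI, replicates 1 to 5 in each. Every TBI rat was above every sham rat, though sham replicate 4 and TBI replicate 5 were nearly level. Its log2 change was 0.64 with a 95% interval of 0.24 to 1.05 (unadjusted p 0.00337, adjusted p 0.483, edgeR), on 15 to 65 counts per library. Naaa, a lysosomal hydrolase of N-acylethanolamines found mainly in macrophages, was at 0.41 (unadjusted p 0.0277, edgeR). Of the 3 fatty acid binding proteins that carry endocannabinoids within the cell, Fabp7 of astroglia was at 0.23 and Fabp3 at -0.24, with unadjusted p of 0.109 and 0.145.

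Markers of microglia and astrocytes were mostly higher in TBI, with 4 of 12 at an unadjusted p under 0.05, against 4.89% of all rows that were higher, while those of oligodendrocytes were split. All 6 microglial markers were higher, at 0.18 to 0.34 on the log2 scale and with 2 at an unadjusted p under 0.05, and their summed level was 135 to 220 CPM in sham and 164 to 234 CPM in TBI. Of 6 astrocyte markers 5 were higher, 2 with an unadjusted p under 0.05 (Gfap at 0.82 and Aldh1l1 at 0.23), and their sum was 1626 to 2476 CPM in sham and 1790 to 3348 CPM in TBI. For both the microglial and the astrocyte sum, sham replicate 3 was the highest sham rat and TBI replicate 3 the lowest TBI rat. The astrocyte transporters Slc1a2 and Slc1a3 were at 0.06 and -0.00094. Of 6 oligodendrocyte markers 3 were higher and 3 lower, with a median of -0.03 and none at an unadjusted p under 0.05. No marker of these 3 lists was at a count of 0 in any library. The part of glial content in the values of the pathway genes was not tested. Pan-neuronal markers differed less, with 5 of 6 lower, at -0.08 to -0.02, and none with an unadjusted p under 0.05. Those signs turned under both total count scalings, where the same number lay below the median change of all rows.

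The Cnr1 difference was followed through 23 other ways of handling the counts. It was negative in 22 of them and had an unadjusted p under 0.05 in 20, with an adjusted p of 0.339 to 0.974. Fitting the share of ribosomal RNA as a covariate gave -0.41 and leaving out both sham rats rich in ribosomal RNA gave -0.38. With each library scaled to its total count, ribosomal RNA included, Cnr1 came out at 0.19, but that scaling moved the median of all rows to 0.50, and relative to that median Cnr1 was at -0.31. Scaling to counts outside ribosomal RNA gave -0.12 (unadjusted p 0.372) with the median of all rows at 0.14, so -0.26 relative to it.

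**Figure D4:**
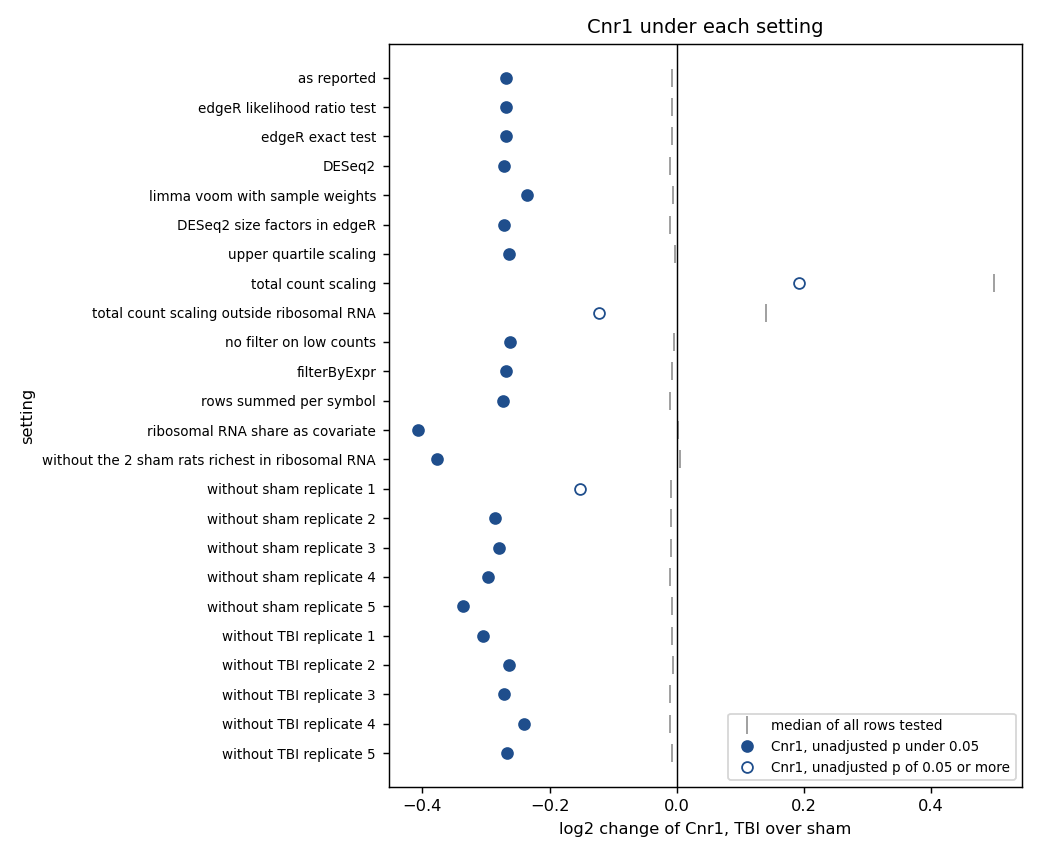
Log2 change of Cnr1, TBI over sham, under the fit reported here and 23 alternatives, with filled circles for an unadjusted p under 0.05, open circles otherwise, and grey ticks for the median change of all rows under the same setting. The values lie below the grey tick in every row, and the open circles are both total count scalings and the fit without sham replicate 1.

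Finally, genes were ranked by how closely their levels tracked each measured gene over the 10 rats. The search covered 8280 named rows with a mean of at least 5 CPM and is a description with no test. The rats differed in group and in library depth, and neither was held constant. With 8280 genes searched over only 10 rats, high values of r can arise by chance, and this was not tested for any gene named. The closest to Cnr1 were Cacna1b (Pearson r 0.916, Spearman rho 0.855), Tspyl4 (r 0.899, rho 0.552) and Man2a1, a Golgi mannosidase (r 0.897, rho 0.770). Cacna1b encodes the pore subunit of the presynaptic N-type calcium channel that CB1 inhibits. Without sham replicate 1 and TBI replicate 4, the rats farthest from the median of Cnr1, r was 0.867 for Cacna1b, 0.770 for Man2a1 and 0.494 for Tspyl4, so the likeness of Tspyl4 rested on those rats.

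The 3 closest genes were Ppp2r3b, Sfpq and Lrrc10b for Dagla (r 0.928, 0.923 and 0.922), and Dap, Rasip1 and Mmp2 for Daglb (r 0.947, 0.929 and 0.920). For Mgll the closest were Extl1 and Niban2 (r 0.859 and 0.820), the lowest leading r of the 6. For Abhd6 the 3 closest were Gpatch2l, Ttc17 and Pip5k1a (r 0.929, 0.880 and 0.879), and for Napepld Itsn1, Wdfy3 and Dcbld2 (r 0.951, 0.920 and 0.916). The value for Wdfy3 dropped to 0.334 and that for Dcbld2 to 0.655 without sham replicate 1 and TBI replicate 5. Without TBI replicates 2 and 4, the values for Extl1 and Niban2 dropped to 0.582 and 0.556. With the 2 rats farthest from the median left out in the same way, the lowest of the rest was 0.712 (Rasip1), and Sfpq rose to 0.986.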

How the data were processed

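Poly-A RNA of 10 rats (5 sham, 5 TBI) was sequenced, and the authors deposited 1 table of raw read counts per RefSeq RNA record. The submitters' processing notes name BWA and rat build rn4, whereas the methods of the study speak of Ensembl genes. Of 32041 RNA records, 54.2% were given a symbol from RefSeq (GRCr8), and 2 rows without a gene were left out. The row of unmapped reads among them held 12.8% to 26.1% of all counts of a library. No transcript lengths were used, so levels are not compared between genes. Strand handling is not given in the sources used here.

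Rows with a total of at least 44 counts, the 30th percentile, were fitted together with edgeR 4.0.16 (TMM scaling, robust quasi-likelihood F test) in R 4.3.3. P-values were adjusted by Benjamini-Hochberg over 22431 rows. CPM use TMM-adjusted library sizes. A symbol with several rows is represented by the row of highest mean count. The procedure was also run on simulated counts with planted changes larger than those of the measured genes, and its outcome is not reported here. Replicate numbers follow accession order.

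The measured genes, lists and rules were chosen with earlier results of these data known. Named were all members, pathway genes with an unadjusted p under 0.05 or the 2 smallest p of their list, the 3 genes most like each member, and markers whose list moved with a result. Cnr2, Gnai1, Gnai3, Gnao1, Plcb1 and Plcb4 were added as relatives of named genes after their values were seen. Some genes that these rules would name are not reported here, and 1 GABAergic marker was left out of its list. The alternatives were DESeq2 1.42.0, limma 3.58.1, other edgeR tests, scalings and filters, summing rows per symbol, the ribosomal RNA share as covariate, and leaving rats out.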

Additional observations from a re-analysis of the deposited data

Results flagged for a closer look

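In 6 of 46 groups of 5 rats, 1 rat stood apart from the other 4 by Dixon's criterion, where chance gives about 1 in 20, or 2.3 groups. Mgll was at 92.4 CPM in sham replicate 4 and at 84.2 to 86.4 CPM in the other sham rats. Napepld was at 5.13 CPM in TBI replicate 5 and at 6.89 to 7.19 CPM in the other TBI rats. Gnai2 was at 274 CPM in sham replicate 3, against 236 to 245 CPM in the rest of that group. Alox12 was at 1.16 CPM in sham replicate 4, against 0.862 to 0.942 CPM. Fabp3 was at 5.42 CPM in TBI replicate 1, against 9.02 to 10.4 CPM. The log2 ratio of Cnr1 to Cck was 0.902 in sham replicate 2, against 0.129 to 0.199 in the other sham rats.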

How the results depend on the processing

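No measured gene and no other pathway gene passed an adjusted p of 0.05 under any of 23 alternatives. The number of measured genes with an unadjusted p under 0.05 was 1 (lower) in the reported fit, 3 (all higher: Dagla, Daglb and Mgll) when scaled to counts outside ribosomal RNA, 1 (Dagla, higher) when scaled to total counts, and 1 to 2 with any 1 rat left out. Over all rows, 1769 were under 0.05 in the reported fit, 2898 when scaled outside ribosomal RNA and 3788 when scaled to total counts. Of the other pathway genes, 6 were under 0.05 in the reported fit, 3 after adding the ribosomal RNA share as a term (2 higher, Plcb3 and Alox12, and 1 lower that was not among the 6), 2 without both sham rats rich in ribosomal RNA, and 3 to 8 when any 1 rat was removed. Over all rows the numbers under 0.05 in those fits were 1769, 992, 1256 and 1162 to 2571, in the same order. Directions turned for 3 genes. Scaled to total counts, Cnr1, Abhd6 and Napepld came out at 0.19, 0.50 and 0.42 on the log2 scale, with the median of all rows at 0.50. Scaled outside ribosomal RNA, Abhd6 was at 0.14 and Napepld at 0.0693, with that median at 0.14. Abhd6, close to 0 throughout, was at 0.0064 with limma voom, 0.0187 with the covariate, 0.0122 without both sham rats rich in ribosomal RNA, and -0.0285 to 0.0133 with 1 rat left out, positive without sham replicate 2 (0.0034), sham replicate 5 (0.0055) or TBI replicate 5 (0.0133). Napepld was at -0.12 to 0.00 with 1 rat left out, positive without TBI replicate 5 (0.0022). Cnr1 was at -0.34 to -0.15. The 5 ratios moved by less than 1 SD between rats throughout, but those near 0 changed sign: Dagla to Daglb, at -0.02, was 0.12 without sham replicate 5, 0.04 without TBI replicate 5 and 0.13 without both sham rats rich in ribosomal RNA, and Dagla to Mgll, at 0.03, was -0.02 without sham replicate 4 and -0.00014 without TBI replicate 3. No paired analysis was possible because the labels number the rats 1 to 10 across both groups and share no number. Napepld had the fewest counts of the measured genes.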
